A study of Homo sapiens with 6 samples.

Results

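The genes of fatty acid oxidation were taken from the count table of Caki-1 cells as the rows whose symbol was 1 of 31 listed symbols. All 31 were found among the 60708 genes of the table. Of these, 19 encode mitochondrial proteins: CPT2, SLC25A20, ACADVL, ACADL, ACADM, ACADS, ACADSB, ACAD9, HADHA, HADHB, HADH, ECHS1, ACAA2, ACAT1, ECI1, DECR1, ETFA, ETFB and ETFDH. Another 6 encode peroxisomal enzymes (ACOX3, EHHADH, HSD17B4, ACAA1, DECR2 and CROT), ECI2 and CRAT encode enzymes found in both compartments, and PPARA, PPARD, PPARGC1A and PPARGC1B encode regulators of transcription.

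Caki-1 is an established human line of clear cell renal carcinoma. Bulk RNA was sequenced from 3 samples of VC cells, labelled WT and infected with a lentiviral CRISPR vector without a guide RNA, and from 3 samples of VHL-KO cells, infected with the same kind of vector carrying a guide RNA against VHL. Both received lentivirus, infected cells were selected with puromycin, and the VHL-KO cells are a clonal line, so that the edit and other properties of the clone cannot be told apart. The question addressed here was which steps of fatty acid oxidation had a different mRNA level in VHL-KO than in VC cells. Reads counted on genes numbered 31789923, 28463579 and 34881739 in VC replicates 1 to 3 and 29139722, 22805385 and 22628246 in VHL-KO replicates 1 to 3. The labels do not say whether the samples came from separate cultures, so p-values measure the spread between these samples, which may be technical.

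Fatty acids are burnt in mitochondria, after the carnitine shuttle has carried their long-chain acyl groups across the inner membrane, by a cycle of dehydrogenation, hydration, a second dehydrogenation and thiolytic cleavage that releases acetyl-CoA. Electrons from the first step pass through the electron transfer flavoprotein to the respiratory chain, whereas peroxisomes shorten very long and branched chains with their own oxidases. Proximal tubule cells of the kidney rely on this pathway, and clear cell renal carcinoma is known for its lipid droplets.

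VHL, the edited gene, encodes the subunit with which a ubiquitin ligase recognizes HIFα proteins. Its level was 42.6, 37.8 and 40.1 TMM-normalized CPM (read counts scaled by library size and edgeR's TMM factors) in VC replicates 1 to 3 and 34.8, 30.4 and 30.5 in VHL-KO replicates 1 to 3. All VHL-KO samples were below all VC samples, at -0.33 on the log2 scale and an adjusted p of 0.0109. This call was lost without VC replicate 1 (-0.28), without VHL-KO replicate 2 (-0.30), with upper quartile factors (-0.22) and once library trends with GC and length were removed (-0.01, as described further on). Another annotated gene covers 23.5% of the exonic bases of VHL. An mRNA level does not show whether the protein was lost. For the clonal line, the study reports a check of the knockout by immunoblot. In this bulk RNA, fewer cells of a type and less RNA per cell cannot be told apart.

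Of the 31 genes, 30 had at least 10 reads in a sample and were tested, and ACADL was not. In VHL-KO cells 12 of the 30 were higher (40%, against 28.5% of all 17401 genes tested) and 9 were lower (30.0%, against 31.2%), at an adjusted p under 0.05 from edgeR's quasi-likelihood test over all genes. The other 9 did not pass the threshold. The share of lower members lay close to that of all genes and the share of higher members above it, and the median log2 fold change was 0.02, against -0.01 over all genes tested. For 24 of the 30 (80%, against 64.7% of all genes) no VC sample lay within the range of the VHL-KO samples or the reverse, in TMM-normalized CPM.

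The mitochondrial genes split in both directions, with 6 of 18 tested higher, 4 lower and 8 not called, and a median log2 fold change of 0.02. Of the peroxisomal genes, 3 of 6 were higher, 2 were lower and 1 was not called, with a median of 0.15. Of the enzymes found in both compartments CRAT rose and ECI2 fell, and of the regulators PPARA and PPARGC1A rose and PPARD and PPARGC1B fell. Scaled by library size alone, which moved the median of all genes to -0.20, the medians were -0.17 for the mitochondrial and -0.05 for the peroxisomal genes, below 0 but above that shift. Upper quartile factors moved the median of all genes to 0.10 and those of the members to 0.13 and 0.26. Of all genes called, 47.7% were higher with TMM factors, 35.8% when library size alone was used and 55% for upper quartile factors, against 57.1%, 43.5% and 61.9% of the members called.

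**Figure D1:**
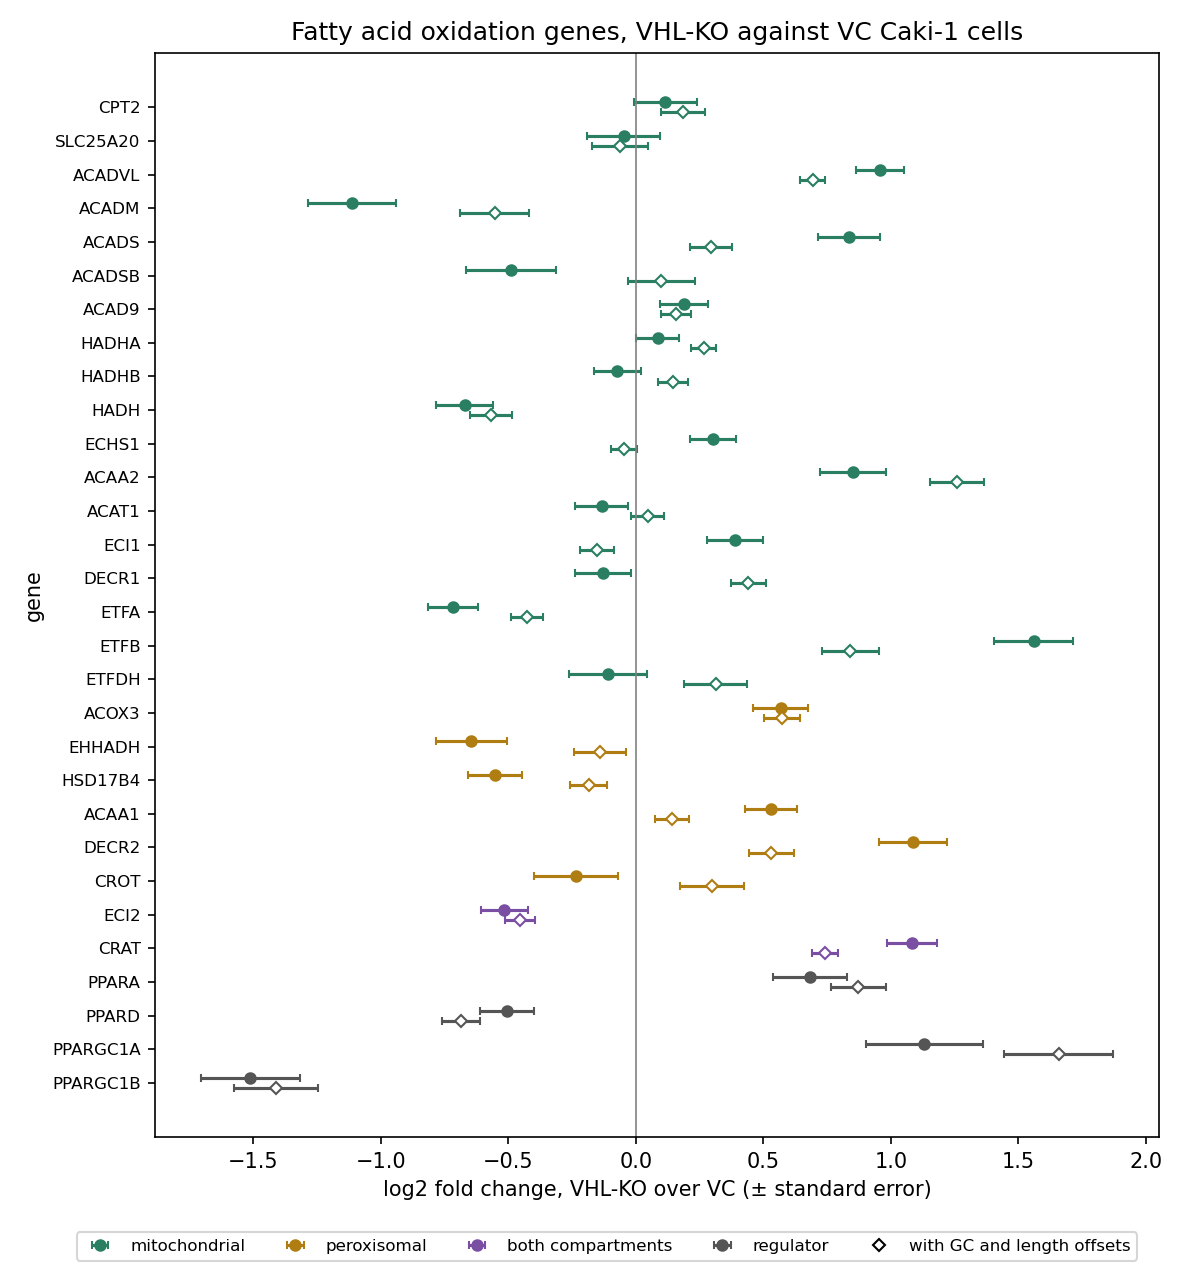
Log2 fold change of each of the 30 tested genes between VHL-KO and VC cells (filled circles) and the same with GC and length offsets (open diamonds), with standard errors, in order of role and coloured by compartment. Without offsets ETFB at 1.56 and PPARGC1B at -1.51 lie at the ends, and with offsets PPARGC1A is highest at 1.66 and the values of ACADSB, HADHB, ECHS1, ACAT1, ECI1, DECR1, ETFDH and CROT stand on the other side of 0.

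Log2 fold changes followed the GC content of the canonical transcript. Across the 30 tested members Spearman's rho was 0.543, against 0.322 across 17355 genes, as a description of genes that share libraries and are not independent replicates. Members called higher had a median GC content of 58.1%, and those called lower 43.8%. In the range from 60% to 80% GC, all 5 members were higher, and the median of all 2540 genes there was 0.50. Below 40% GC, 2 of 3 members were lower, and the median of 2704 genes was -0.47. The fit was therefore repeated with an offset per library that takes out the trend of its counts with GC content and length of the transcript, which also takes out any biological change that follows them. With these offsets 14 members were higher, against 30.0% of all genes, and 7 were lower, against 30.2%. By compartment, 9 mitochondrial genes were then higher and 3 lower, and 2 peroxisomal genes were higher and 1 lower. Among the 21 members called without offsets, 16 kept their call and 5 lost it (ACADSB, ECHS1, ECI1, EHHADH and ACAA1), and 5 others gained one (ACAD9, HADHA, HADHB, DECR1 and ETFDH). The share of the trend that is technical was not tested.

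**Figure D2:**
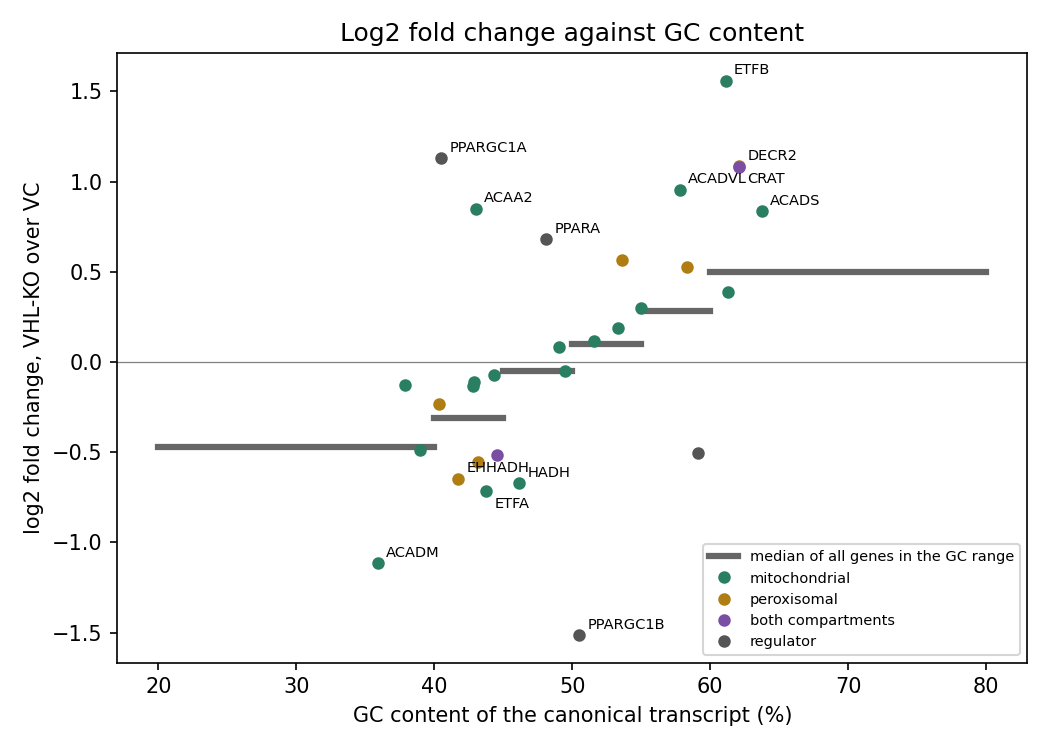
Log2 fold change of each tested member against the GC content of its canonical transcript, with the median of all genes in each GC range as horizontal bars. All 5 members from 60% to 80% GC were called higher, whereas PPARGC1A and ACAA2 lie above and PPARD and PPARGC1B below the bars of their ranges.

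Under all 16 alternatives in scaling, filter, tool, samples, replicate block and offsets, both versions of the offsets among them, 15 members kept their call. These were ACADVL, ACADS, ACAA2, ETFB, ACOX3, DECR2, CRAT, PPARA and PPARGC1A, which were higher, and ACADM, HADH, ETFA, ECI2, PPARD and PPARGC1B, which were lower. By compartment they were 7 mitochondrial genes, 2 peroxisomal genes, both genes shared by the compartments and all 4 regulators. Offsets were first computed from all exons of each gene, and the version from canonical transcripts, called the offsets here, was adopted after those values were seen.

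Neither tested member of the carnitine shuttle passed the threshold with TMM factors and no offsets. CPT2, the inner-membrane enzyme that turns acylcarnitines back into acyl-CoA, was at 17.9, 18.9 and 17.0 TMM-normalized CPM in the VC samples and 19.3, 19.9 and 19.1 in the VHL-KO samples, without overlap but only 0.12 apart on the log2 scale (adjusted p = 0.43). Its value was -0.08 by library size alone, and 0.44 and past the threshold with offsets from all exons. SLC25A20, the carnitine-acylcarnitine carrier, overlapped between the groups, at 13.5, 12.1 and 11.5 TMM-normalized CPM in VC replicates 1 to 3 and 10.9, 12.6 and 12.4 in VHL-KO replicates 1 to 3 (log2 fold change -0.05, adjusted p = 0.783). It stood at 0.03 without VC replicate 1, at 0.02 without VHL-KO replicate 1 and at 0.06 with upper quartile factors. CPT1A, the outer-membrane enzyme that commits long chains to the shuttle, is not among the 31 genes and was chosen after its values were seen. Its counts were 750, 456 and 699 in the VC and 174, 166 and 135 in the VHL-KO samples, with each VHL-KO sample far below each VC sample. CPT1A stood at -1.44 on the log2 scale (adjusted p = 2.56e-08).

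Acyl-CoA dehydrogenases, which carry out the first step of the cycle and differ in the chain length they accept, moved apart. ACADVL, for very long chains, was at 185, 204 and 160 TMM-normalized CPM in VC replicates 1 to 3 and 349, 361 and 353 in VHL-KO replicates 1 to 3. Every VHL-KO sample lay above every VC sample, and the VHL-KO samples lay closer together. ACADVL (ENSG00000072778.20, chr17:7217125-7225266) rose by 0.96 ± 0.09 on the log2 scale (± standard error, adjusted p = 4.53e-09), or 1.94-fold. With the offsets the rise of ACADVL was 0.69, at a transcript GC of 57.8%. ACADM, for medium chains, was at 20.3, 15.0 and 24.1 TMM-normalized CPM in the VC samples and 9.17, 7.18 and 11.2 in the VHL-KO samples. The groups did not overlap, although VC replicate 2 was well below the other VC samples. ACADM (ENSG00000117054.15, chr1:75724431-75787575) had a value of -1.11 ± 0.17 on this scale (adjusted p = 5.13e-06), and of -0.55 with the offsets, for a transcript of 35.9% GC.

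ACADS, for short chains, rose from 15.6, 16.4 and 13.6 TMM-normalized CPM in the VC samples to 28.0, 27.1 and 26.1 in the VHL-KO samples, all VHL-KO samples being higher. On the log2 scale this was a rise of 0.84 (adjusted p = 2.49e-06), which shrank to 0.29 with the offsets (transcript GC 63.7%). ACADSB, for short branched chains, had 8.49, 6.39 and 9.51 TMM-normalized CPM in the VC samples and 5.28, 6.40 and 5.77 in the VHL-KO samples, where VC replicate 2 overlapped with the VHL-KO samples. The log2 fold change of -0.49 (adjusted p = 0.0208) did not pass the threshold without VC replicate 1 (-0.45), VC replicate 3 (-0.34) or VHL-KO replicate 1 (-0.41), nor with upper quartile factors (-0.38), with adjusted p-values of 0.0755, 0.115, 0.0918 and 0.0657. Over all alternatives the adjusted p ran from 0.00258 to 0.656, and with the offsets the value was 0.10. ACAD9, which also serves as an assembly factor of respiratory complex I, stood at 66.6 ± 4.05 in VC and 75.9 ± 0.981 TMM-normalized CPM in VHL-KO samples (mean ± SD over 3), 0.19 apart on the log2 scale (adjusted p = 0.0847). It was called higher without VC replicate 2 (0.26), by DESeq2 (0.21), with upper quartile factors (0.30), under a filter of 10 reads in each library (0.22) and with the offsets (0.16), but not with offsets from all exons (0.12), and stood at -0.0024 by library size alone. ACADL, for long chains, had counts of 3, 2 and 4 in the VC and of 1, 2 and 0 in the VHL-KO samples. At this depth a difference in ACADL was not detectable, since a count of 0 allows up to 3 counts, or 0.079 to 0.141 CPM by sample.

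The later steps of the cycle were mixed. HADHA and HADHB encode the α and β subunits of the trifunctional protein, which carries out the last 3 steps on long chains. HADHA was at 271, 273 and 263 TMM-normalized CPM in the VC samples and 289, 287 and 279 in the VHL-KO samples, a separation of 0.09 on the log2 scale (adjusted p = 0.39). HADHB was at 91.4, 88.0 and 93.1 in the VC samples against 90.7, 81.5 and 87.0 in the VHL-KO samples, with overlapping groups and a value of -0.07 on that scale (adjusted p = 0.512). With the offsets both were called higher, HADHA at 0.27 and HADHB at 0.14. By library size alone HADHA stood at -0.11, and HADHB was called lower at -0.27, whereas upper quartile factors put HADHB at 0.04.

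HADH, the dehydrogenase of short and medium 3-hydroxyacyl-CoA, fell from 33.1, 36.2 and 32.7 TMM-normalized CPM in the VC samples to 21.3, 21.7 and 21.1 in the VHL-KO samples. All VHL-KO samples were lower and within a narrow range, at -0.67 on the log2 scale (adjusted p = 1.44e-05), or -0.44 with offsets from all exons. ACAA2, the thiolase of the mitochondrial cycle, was at 16.8, 16.2 and 18.1 TMM-normalized CPM in the VC samples and 35.7, 30.8 and 25.6 in the VHL-KO samples. The groups did not overlap, and VHL-KO replicate 1 was the highest. ACAA2 rose by 0.85 on the log2 scale (adjusted p = 3.94e-06) and by 1.26 with the offsets. Its transcript has 43.0% GC, and the median of the 3633 genes from 40% to 45% GC was -0.31. ACAT1, the thiolase that cleaves acetoacetyl-CoA, was at 58.3 ± 6.53 TMM-normalized CPM in the VC and 53.1 ± 2.78 in the VHL-KO samples (mean ± SD), with overlap and without a call (-0.13 on the log2 scale). It was called lower by library size alone (-0.33), was 0.05 with the offsets, and was called higher with offsets from all exons (0.35). ECHS1, the short-chain enoyl-CoA hydratase, was at 206, 226 and 190 TMM-normalized CPM in the VC samples and 270, 258 and 238 in the VHL-KO samples, without overlap. Its log2 fold change of 0.30 (adjusted p = 0.00642) did not pass the threshold by library size alone (0.11), was -0.05 with the offsets, and was called lower with offsets from all exons (-0.15).

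Auxiliary enzymes prepare unsaturated chains for the cycle. ECI1, an enoyl-CoA isomerase, had 55.9, 68.3 and 50.6 TMM-normalized CPM in the VC samples and 78.7, 81.1 and 68.7 in the VHL-KO samples. The groups stood close together without overlapping. ECI1 was higher by 0.39 on the log2 scale (adjusted p = 0.00403), a call that was lost by library size alone (0.20) and with offsets, where the value was -0.15, or -0.01 from all exons. With the offsets and a replicate block ECI1 was called lower, at -0.15. DECR1, the mitochondrial dienoyl-CoA reductase, overlapped between the groups at 53.0 ± 7.52 TMM-normalized CPM in the VC and 48.5 ± 2.24 in the VHL-KO samples (mean ± SD, n = 3 each). From -0.13 on the log2 scale (adjusted p = 0.319 from edgeR), its value turned to 0.44 with the offsets, a call for higher, whereas it was called lower without VC replicate 2 (-0.22) and by library size alone (-0.33).

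The subunits of the electron transfer flavoprotein went in opposite directions. ETFB, the β subunit, was at 8.64, 8.31 and 6.08 TMM-normalized CPM in VC replicates 1 to 3 and 23.9, 24.8 and 19.1 in VHL-KO replicates 1 to 3. Even the lowest VHL-KO sample lay above the highest VC sample. Without offsets this was the largest rise among the 30 tested members, 1.56 ± 0.15 on the log2 scale (± standard error, adjusted p = 4.86e-09) for ETFB (ENSG00000105379.10, chr19:51345169-51366388), or 0.84 with the offsets at a transcript GC of 61.1%. With the offsets PPARGC1A, ACAA2 and PPARA rose more than ETFB, whereas with offsets from all exons ETFB rose by 1.64 and PPARGC1A by 1.63. ETFA, the α subunit, fell from 69.8, 64.3 and 69.5 TMM-normalized CPM in the VC samples to 42.4, 41.0 and 40.5 in the VHL-KO samples, again without overlap. ETFA (ENSG00000140374.16, chr15:76188555-76311730) stood at -0.72 ± 0.10 (adjusted p = 7.85e-07), or -0.43 with the offsets at a transcript GC of 43.8%. ETFDH, the oxidoreductase that hands the electrons to ubiquinone, was at 8.96, 8.65 and 8.69 TMM-normalized CPM in the VC samples and 8.42, 7.65 and 8.30 in the VHL-KO samples. The VHL-KO samples lay just under the VC samples, -0.11 on the log2 scale and without a call (adjusted p = 0.554), and ETFDH was called higher with the offsets, at 0.31, and stood at 0.00 with upper quartile factors.

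Ratios of counts per transcript length were taken for 5 pairs of related genes, chosen after their values were seen, as a description without a test. For ETFB over ETFA the ratio was 0.325, 0.340 and 0.230 in VC replicates 1 to 3 and 1.48, 1.58 and 1.24 in VHL-KO replicates 1 to 3, a 4.81-fold difference of the means. ACADVL over ACADM went from 10.1 ± 3.64 to 41.4 ± 9.82 (mean ± SD, n = 3 each), 4.09-fold. HADHA over HADHB went from 2.01 ± 0.0945 to 2.25 ± 0.128, only 1.12-fold. PPARGC1A over PPARGC1B went from 0.426 ± 0.0228 to 2.80 ± 1.25, the largest of the 5 at 6.57-fold, and ACAA2 over ACAT1 from 0.154 ± 0.0120 to 0.303 ± 0.0408, 1.96-fold. The pairs differ in GC content, which was not corrected for in the ratios.

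**Figure D3:**
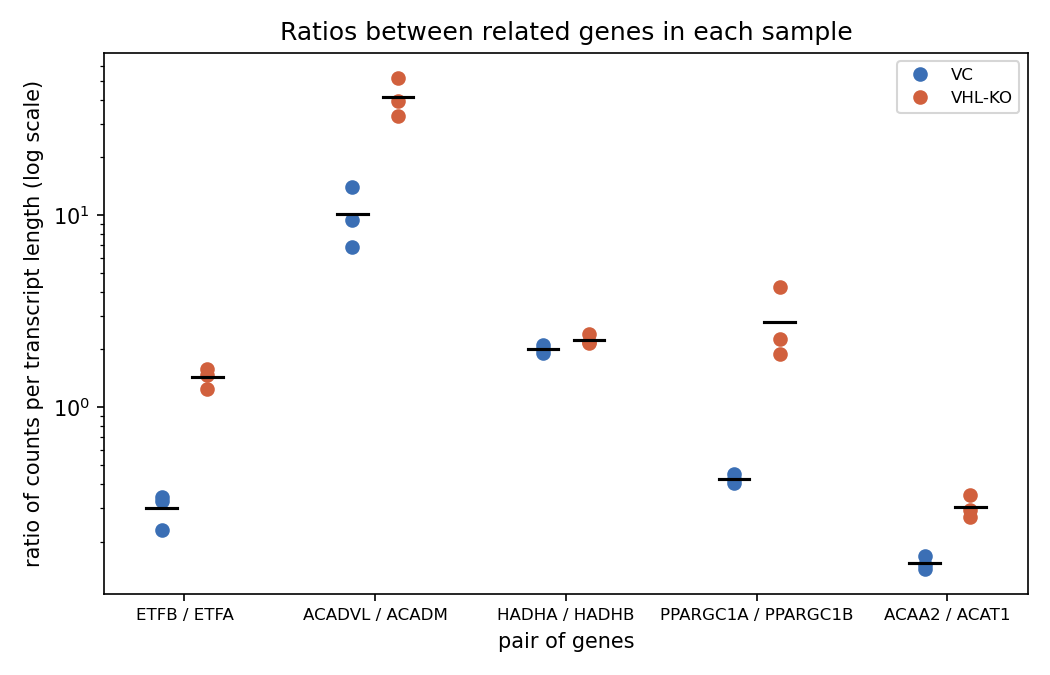
Ratio of counts per transcript length (log scale) for 5 pairs of genes in each sample, with bars at the group means. The 3 VHL-KO samples lie above the 3 VC samples in every pair, with means from 1.12-fold (HADHA over HADHB) to 6.57-fold apart (PPARGC1A over PPARGC1B).

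Peroxisomal enzymes also went both ways. ACOX3, an oxidase that opens the peroxisomal cycle on branched chains, was at 31.7, 38.0 and 30.9 TMM-normalized CPM in the VC samples and 49.8, 47.6 and 51.5 in the VHL-KO samples. All VHL-KO samples were higher, by 0.57 on the log2 scale (adjusted p = 7.82e-05) and by 0.38 when scaled by library size alone. DECR2, the peroxisomal dienoyl-CoA reductase, rose from 12, 13.5 and 10.1 TMM-normalized CPM in the VC samples to 25.8, 25.8 and 24.0 in the VHL-KO samples without overlap. DECR2 was 2.12-fold higher (adjusted p = 1.53e-07), a rise of 1.09 on the log2 scale, of 0.53 with the offsets and of 0.77 with offsets from all exons. ACAA1, the peroxisomal thiolase, stood at 39.0, 42.4 and 36.2 TMM-normalized CPM in the VC samples and 54.2, 58.8 and 56.9 in the VHL-KO samples, again without overlap. It rose by 0.53 on the log2 scale (adjusted p = 8.97e-05), which was 0.34 by library size alone and lost its call at 0.14 with the offsets but kept it at 0.57 with offsets from all exons, and 21.2% of its exonic bases overlap another annotated gene.

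The multifunctional proteins of the peroxisome were lower. EHHADH, the L-bifunctional enzyme, was at 15.6, 16.4 and 19.5 TMM-normalized CPM in the VC samples and 10.4, 11.4 and 11 in the VHL-KO samples. HSD17B4, the D-bifunctional enzyme, was at 63.2, 54.7 and 64.6 in the VC samples against 41.7, 45.3 and 37.5 in the VHL-KO samples. No sample of either gene overlapped between the groups, with EHHADH at -0.65 (adjusted p = 3.10e-04) and HSD17B4 at -0.55 (adjusted p = 8.68e-05) on the log2 scale. With the offsets EHHADH was at -0.14 and lost its call, and HSD17B4 was at -0.18 and kept it, but lost it at -0.04 with offsets from all exons. CROT, the carnitine octanoyltransferase that exports shortened chains, was at 9.27 ± 1.55 TMM-normalized CPM in the VC and 7.90 ± 0.793 in the VHL-KO samples (mean ± SD), with overlap and without a call (-0.23 on the log2 scale). It was called lower by library size alone (-0.43), stood at 0.30 with the offsets and was called higher with offsets from all exons (0.40).

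CRAT and ECI2 work in both compartments. CRAT, the carnitine acetyltransferase, rose from 76.6, 87.0 and 68.1 TMM-normalized CPM in the VC samples to 162, 164 and 165 in the VHL-KO samples. The VHL-KO values were nearly alike and all above the VC values, and CRAT (ENSG00000095321.18, chr9:129094142-129111189) rose 2.12-fold, or 1.08 ± 0.10 on the log2 scale (adjusted p = 9.98e-10). With the offsets the rise of CRAT was 0.74, at a transcript GC of 62.1%. ECI2, an enoyl-CoA isomerase, fell from 105, 98.8 and 100 TMM-normalized CPM in the VC samples to 74.5, 70.4 and 67.5 in the VHL-KO samples. All VHL-KO samples were lower, at -0.52 on the log2 scale (adjusted p = 3.35e-05), or -0.27 with offsets from all exons. Of the exonic bases of ECI2, 29.8% lie within another annotated gene, so its reads could be shared or left out.

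Receptors and coactivators formed pairs of opposite direction. PPARA, a nuclear receptor that activates genes of this pathway, was at 7.88, 8.82 and 8.67 TMM-normalized CPM in the VC samples and 12.7, 13.6 and 14.4 in the VHL-KO samples. PPARD, its widely expressed relative, was at 42.9, 44.5 and 39.5 in the VC samples against 30.4, 30.3 and 28.7 in the VHL-KO samples. The groups were separate for both, with PPARA higher by 0.68 on the log2 scale (adjusted p = 2.63e-04) and PPARD at -0.51 (adjusted p = 2.37e-04). PPARGC1A, the coactivator PGC-1α, had few reads, with counts of 63, 58 and 80 in the VC and of 96, 123 and 79 in the VHL-KO samples. In TMM-normalized CPM all VHL-KO samples were higher, replicate 2 the most, by 1.13 ± 0.23 on the log2 scale (± standard error, adjusted p = 1.50e-04), or 1.66 with the offsets. PPARGC1B, the coactivator PGC-1β, had counts of 250, 217 and 333 in the VC and of 71, 49 and 70 in the VHL-KO samples, all lower by far. PPARGC1B (ENSG00000155846.17, chr5:149730298-149855022) showed the largest fall of the 30 tested members, -1.51 ± 0.19 (adjusted p = 3.21e-07).

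Levels were compared between genes per kb of the canonical transcript. In VC cells ECHS1 was highest, at 162 TMM-normalized CPM per kb, followed by HADHA at 91.4 and ACADVL at 83.6, which overlapped in their samples' spread with each other. In VHL-KO cells ACADVL came second, at 162, and CRAT moved from rank 9 to rank 4. ETFB moved from rank 17 to 11 and ACADM from 18 to 23. PPARGC1A, PPARGC1B and ACADL had the lowest levels in both groups. Summed over the 19 mitochondrial genes, the level was 608, 627 and 576 TMM-normalized CPM per kb in the VC and 758, 748 and 710 in the VHL-KO samples, with 26.9% of the VC sum from ECHS1. Over the 6 peroxisomal genes the sums were 73.0 ± 1.47 in VC and 88.0 ± 2.44 in VHL-KO samples (mean ± SD over 3). Both sums were higher in every VHL-KO sample, although the sums follow the most abundant genes and were not tested. The sums rest on TMM factors and were not recomputed by library size alone or with the offsets.

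**Figure D4:**
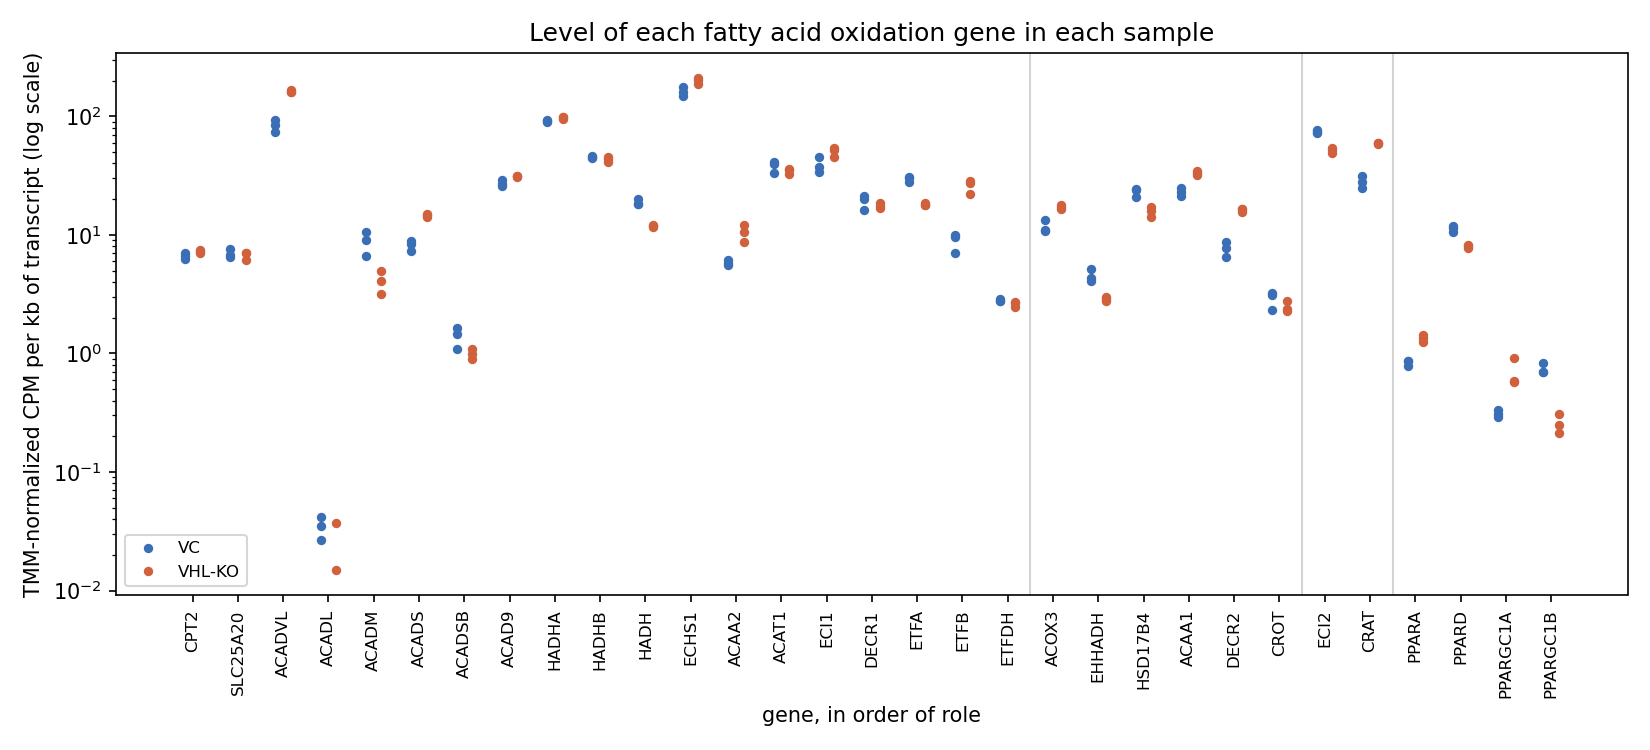
Level of each of the 31 genes in each sample, as TMM-normalized CPM per kb of the canonical transcript on a log scale, with VC and VHL-KO samples side by side and grey lines between mitochondrial, peroxisomal, shared and regulator genes. ECHS1 is highest, ACADL is lowest, and the ACADL value of VHL-KO replicate 3, which is 0, is not drawn.

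Promoters were looked at because members moved in both directions. RefSeq windows on GRCh38.p14 were given for 25 of the 31 genes, and the 250 bases before the start nearest to the canonical one were read. For PPARGC1A and PPARGC1B that window lies 8946 and 41630 bases from the canonical start. The HIF-binding core, searched as ACGTG and GCGTG on both strands, was found in 12 of the 25 windows (48.0%), against 43.2% of 35116 promoter windows. It was in 4 of 9 windows of members called higher, 4 of 8 of those called lower 3 of 7 of those not called and that of ACADL, which was not tested. AGGTCA, the core element of nuclear receptors such as the PPARs, was in none of the 25 windows and in 12.1% of all, and no match says only that these letters are not in this window. CCAAT was in 8 (32.0%), against 32.0% of all windows. The median GC content was 68.8% in the 25 windows and 58.0% in all, and the shares were not adjusted for it. The windows of HADHA and HADHB, whose starts lie 307 bases apart on opposite strands of chromosome 2, share 194 bases at chr2:26244689-26244882 and hold no match of any of these motifs.

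For genes that kept their call under every alternative, the upstream bases outside exons annotated by GENCODE are shown 5′ to 3′ on the gene's strand from RefSeq (GRCh38.p14), 3 genes chosen after their values were seen, with capitals marking matches of GCGTG or of CCAAT on either strand, so that a CCAAT of the other strand reads ATTGG. ETFB (chr19:51366389-51366638, minus strand) rose and has 2 matches of CCAAT, ACAA2 (chr18:49813534-49813681, minus strand) rose with 3 matches of GCGTG, and PPARD (chr6:35342308-35342557, plus strand) fell with 3 matches of GCGTG and 1 of CCAAT.
ETFB: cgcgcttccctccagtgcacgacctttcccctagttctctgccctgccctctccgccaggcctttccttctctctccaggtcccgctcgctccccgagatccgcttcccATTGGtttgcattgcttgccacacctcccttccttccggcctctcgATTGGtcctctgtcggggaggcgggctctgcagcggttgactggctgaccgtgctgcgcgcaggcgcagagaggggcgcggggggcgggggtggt
ACAA2: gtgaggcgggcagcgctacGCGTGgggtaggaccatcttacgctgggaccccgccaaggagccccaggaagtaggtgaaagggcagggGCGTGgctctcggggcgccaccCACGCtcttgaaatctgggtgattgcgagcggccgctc
PPARD: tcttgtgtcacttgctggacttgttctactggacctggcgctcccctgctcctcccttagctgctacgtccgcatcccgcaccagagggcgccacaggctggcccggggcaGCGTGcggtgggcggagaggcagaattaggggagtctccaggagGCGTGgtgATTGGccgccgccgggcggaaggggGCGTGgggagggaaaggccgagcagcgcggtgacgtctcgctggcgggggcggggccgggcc
A match is a description of letters and no evidence of binding, and GCGTG was present before genes of either direction.

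Genes around the pathway were taken from lists, counted in the same test, in which 28.5% of all genes were higher and 31.2% lower. Of 9 tested genes of fatty acid activation and entry 2 were higher and 5 lower, the higher including ACACB, the mitochondrial acetyl-CoA carboxylase whose product inhibits the shuttle, with counts of 81, 88 and 89 in the VC and of 258, 211 and 237 in the VHL-KO samples, a rise of 1.99 on the log2 scale (adjusted p = 1.07e-09). The median of these 9 genes was -0.33, and with the offsets it was -0.07, with 1 higher and 4 lower. The acyl-CoA synthetases ACSL3 (-1.58, with the offsets -0.96) and ACSL4 (-0.97, with the offsets -0.29) were lower on the log2 scale. Among 9 other peroxisomal lipid genes 3 were higher and 3 lower, with the transporter ABCD3 at -1.36 and the thioesterase ACOT8 at 0.96, and a median of -0.49. With the offsets ABCD3 was at -0.73 and ACOT8 at 0.37, and the median was 0.0065, with 3 higher and 2 lower. Of 16 genes of peroxisome biogenesis 6 were higher and 3 lower, with log2 fold changes of 1.99 for PEX11G, -1.80 for PEX3 and -0.83 for PEX7, and a median of 0.10. With the offsets 7 were higher and 2 lower, PEX11G was at 1.21 and PEX3 at -1.22, and the median was 0.17. Of 7 other dehydrogenases that feed the electron transfer flavoprotein 1 was higher, ACAD10 at 0.82, and 2 lower, ACAD8 at -0.66 and IVD at -0.35, with a median of -0.26, against 1 and 3 and a median of -0.27 with the offsets. Ketone body and propionate enzymes had 1 higher and 4 lower of 7 tested, with OXCT1 at -1.57 and BDH1 at -0.89, and a median of -0.39, against 2 and 3 and a median of -0.18 with the offsets. Over these lists together with targets and partners of the regulators, 19 of 69 tested genes were higher (27.5%) and 24 lower (34.8%), with a median of -0.12, and 21 and 24 with a median of -0.08 with the offsets.

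Known targets of PPAR receptors outside the pathway had 3 higher and 1 lower of 8 tested. With the offsets 4 were higher and 3 lower, since PDK4 (1.36) gained a call for higher and ACOT1 (-0.48) and ACOT2 (-0.51) for lower, with a median of 0.63. ANGPTL4, an inhibitor of lipoprotein lipase, rose by 3.40 and PLIN2, a coat protein of lipid droplets, by 2.97 on the log2 scale, whereas UCP3 was at -1.40, and the median was 0.51. Partners of the regulators had 3 higher and 6 lower of 13, with PRKAA2, a catalytic subunit of AMPK, at 3.07, SIRT1 at -1.25 and PRKAA1 at -0.92, and a median of -0.32. With the offsets 3 were higher and 7 lower, SIRT1 was at -0.70 and PRKAA1 at -0.27, and the median was -0.35. In a list of 12 HIF targets 10 were higher and 1 was lower, EGLN3 at -1.26, with a median of 1.69, against 11 and 1 and a median of 1.76 with the offsets. NDRG1 rose by 6.03 and ADM by 3.55 on the log2 scale, and the counts of CA9, a carbonic anhydrase, were 0, 0 and 2 in the VC and 288, 247 and 233 in the VHL-KO samples.

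Markers of a kidney epithelial tumour line were present, with all 6 tested and a summed level of 7590 to 8766 TMM-normalized CPM by sample, most of it VIM. On the log2 scale PAX8 (0.52), KRT8 (0.51) and KRT18 (0.37) were higher and EPCAM (-1.42) was lower, and with the offsets KRT8 and KRT18 lost their call and 3 markers were lower. Of 9 markers of other cell types only CD14 and PECAM1 had enough reads. The 9 summed to 1.85, 2.02 and 1.40 TMM-normalized CPM in the VC and 5.02, 5.98 and 4.74 in the VHL-KO samples, CD14 being the most abundant and CD3E at 0 in all 6. CD14 had counts of 58, 50 and 49 in the VC and of 110, 113 and 76 in the VHL-KO samples. PECAM1 had counts of 1, 5 and 0 in the VC against 14, 7 and 9 in the VHL-KO samples. Their part in the results above was not tested.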

How the data were processed

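RNA-seq of 3 VC and 3 VHL-KO samples of Caki-1 cells was used. The count of reads per gene was deposited by the authors without normalization. Per the study's methods and the submitters' notes, reads were trimmed with Trim Galore and cutadapt to at least 20 bases, aligned with STAR to GRCh38.p13, kept if uniquely mapped (SAMtools) and counted with HTSeq. Strandedness, counting mode and annotation release are not given in the sources used here. Groups were compared with edgeR 4.0.16 in R 4.3.3 (TMM factors, two-sided quasi-likelihood F test, Benjamini-Hochberg adjustment over all genes that reached 10 reads in a sample), tested on simulated data. Alternatives were DESeq2 1.42.0, other factors and filters, leaving out each library, a replicate block and offsets. GC content and length came from the canonical transcripts of GENCODE 44, found for 17355 tested genes, and offsets used natural splines with 5 degrees of freedom. Offsets were first computed from all exons of each gene. The canonical transcript was adopted after those results had been seen and with an earlier description of these data, which used transcripts, known. Values from all exons are given for part of the members. The members and lists were chosen with earlier results of these data known. Named were all members, VHL and up to 3 genes with the largest called change in each other list. Floors cover counting error only. Standard errors come from the quasi-likelihood fit, which also takes in the spread between samples.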

Additional observations from a re-analysis of the deposited data

How the results depend on the processing

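Under 16 alternatives, 15 of the 21 called members kept their call, and 12 to 13 members were higher and 8 to 10 lower when a library was left out. The median of the mitochondrial genes was 0.044 with DESeq2, 0.044 with relative log expression factors, 0.13 with upper quartile factors, -0.17 by library size alone, -0.087 without a filter beyond 1 count, 0.05 under a filter of 10 reads in each library and 0.015 to 0.062 without a library. That of the peroxisomal genes was 0.26 with upper quartile factors and -0.046 by library size alone. Without a filter beyond 1 count 31 members were tested, ACADL among them, and the mitochondrial median was the value of SLC25A20. Signs changed with upper quartile factors for SLC25A20 (0.062), HADHB (0.040) and ETFDH (0.0031), by library size alone for CPT2 (-0.077), ACAD9 (-0.0024) and HADHA (-0.11), and without a library for SLC25A20 (-0.085 to 0.026). The cause was not tested.

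With GC and length offsets 14 members were higher and 7 lower, the medians were 0.15 (mitochondrial) and 0.22 (peroxisomal), and signs changed for ACADSB (0.10), HADHB (0.14), ECHS1 (-0.047), ACAT1 (0.046), ECI1 (-0.15), DECR1 (0.44), ETFDH (0.31) and CROT (0.30). Offsets from all exons, computed first and kept as an added alternative when the canonical transcript was adopted after their values were seen, gave 17 higher and 7 lower, medians of 0.22 and 0.42, and values of 0.074, 0.20, -0.15, 0.35, -0.0086, 0.49, 0.37 and 0.40 for the same genes in the same order. The choice between them decides the calls of ACAA1, ACAD9, ACAT1, CPT2, CROT, ECHS1 and HSD17B4, and the size of that of ETFB (0.84 against 1.64). The cause was not tested.

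Whether replicate numbers pair the samples cannot be told, since all correlations between VC and VHL-KO replicates were weak. The same-number correlation was 0.063 for replicate 1 and 0.028 for replicate 3, each the highest for its samples. VC replicate 2 correlated better with VHL-KO replicate 3 (0.017) than with its own number (0), and VHL-KO replicate 2 better with VC replicate 3 (0.007). With a replicate block 12 members were higher and 9 lower. With the replicate block and offsets 14 were higher and 8 lower, the mitochondrial median was 0.15, ECI1 was called lower, and the values of the genes above were 0.10, 0.14, -0.047, 0.046, -0.15, 0.44, 0.31 and 0.30. Depth limits ACADL, with at most 4 counts in a sample.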
